A study of Mus musculus with 6 samples.

Results

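Malat1, Neat1, Kcnq1ot1, Miat, Mir17hg, Mir22hg, Pvt1, Tug1, Lncpint and Dancr are long non-coding RNAs (lncRNAs) with a regulatory role known from other systems, and they were chosen by name rather than by any measured value. Of these 10 genes, 9 had an identifier in a deposited table of 5385 lncRNAs and 9 in a deposited table of 41126 features of all kinds, each holding the same 6 RNA-seq libraries of mouse dermal fibroblasts. Dancr was matched in neither table. Malat1 had no usable estimate in the all-gene table, where it was marked as having too many fragments and listed at 0 in all 6 libraries, so that 9 of the 10 genes were measured in the lncRNA table and 8 in the all-gene table. Both tables count the same reads and are not independent of each other.

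The study asked which RNAs respond when β-catenin, the transcriptional effector of Wnt signaling, is stabilized. The Control group (n = 3) had the labels AdGFP and +/+, and the gain-of-function group (GOF, n = 3) had the labels AdCre and Ctnnb1 delta ex3/+, for cells in which adenoviral Cre removes exon 3 of Ctnnb1 and leaves a β-catenin that escapes degradation. All cells were primary dermal fibroblasts of mixed CD1 and C57Bl6 background taken at postnatal day 4. The number that opens each sample title was read as the animal of origin. On this reading, taken from the titles alone, cultures came from 4 animals, and 2 of these animals are represented in both groups. One was the source of Control 0 and GOF 2 and the other of Control 2 and GOF 0. The 6 libraries are therefore not 6 independent samples, while Control 1 and GOF 1 came from different animals. The sample labels give an infection with Cre virus at a multiplicity of infection of 366 to 500 for 6 h for every library, whereas the genotype labels and the methods of the study give the GFP virus for the controls, and the effect of the virus and that of the recombined allele cannot be told apart. The methods also describe the controls as carrying the same unrecombined allele, which the label +/+ does not show. If the title numbers are animals, Control 0 and Control 2 share theirs with GOF cultures, and these animals must then carry the allele. For Control 1 the labels leave this open.

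LncRNAs act in several ways. Some build or populate nuclear bodies, as Neat1 does for paraspeckles and Malat1 for nuclear speckles, and some silence genes on their own chromosome, as Kcnq1ot1 does in an imprinted domain. Others are processed into microRNAs, which repress mRNAs that pair with the microRNA's seed. In fibroblasts these transcripts have been studied mainly in connection with proliferation, stress responses and fibrosis.

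The 2 microRNA hosts are shown first by what they encode, because in these data only the host transcripts and not the mature microRNAs were measured. Mir17hg (mm10, chromosome 14, 115042879 to 115046727, plus strand) carries 6 hairpins, Mir17, Mir18, Mir19a, Mir20a, Mir19b-1 and Mir92-1, and Mir22hg (chromosome 11, 75461539 to 75466676, plus strand) carries 1, Mir22. All 7 hairpins lie in an exon of their host on the same strand. All 7 were listed in the all-gene table with 0 fragments in each library. The main mature sequences, from RefSeq on GRCm38.p6 and written 5′ to 3′ with the seed (bases 2 to 8) in capitals, include 2 pairs with a shared seed among the Mir17hg products.
mmu-miR-17-5p: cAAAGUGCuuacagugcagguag
mmu-miR-20a-5p: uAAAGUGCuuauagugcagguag
mmu-miR-18a-5p: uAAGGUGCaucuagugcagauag
mmu-miR-19a-3p: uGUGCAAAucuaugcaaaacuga
mmu-miR-19b-3p: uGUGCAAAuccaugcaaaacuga
mmu-miR-92a-3p: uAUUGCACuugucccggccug
mmu-miR-22-3p: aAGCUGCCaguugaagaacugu
The seed AAAGUGC is shared by miR-17-5p and miR-20a-5p and the seed GUGCAAA by miR-19a-3p and miR-19b-3p, while the seed of miR-22-3p occurs in no other mature sequence of these hairpins.

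Sequencing depth was between 35980831 and 42834467 fragments per library in the all-gene table and between 1022957 and 1726901 in the lncRNA table. Axin2, a direct target of β-catenin, followed the labels, with 0.136 to 0.177 FPKM (fragments scaled by transcript length and sequencing depth) in the controls and 14.4 to 19.2 FPKM in GOF samples. All 7 fibroblast markers were expressed, with a summed level of 2985 to 3775 FPKM in the controls and 2453 to 2974 FPKM in GOF samples. Of these markers 1 passed the adjusted p threshold described below as higher in GOF samples, Vim, and 2 as lower, Dcn and Col1a2, beside 11.1% and 10.2% of all features. The 4 keratinocyte markers summed to at most 0.548 FPKM in any library. The deposited libraries are of bulk RNA, in which fewer cells that express a gene and less RNA per cell cannot be told apart.

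Per length, and within the lncRNA table, the genes differed widely. Malat1 was second of 5385 lncRNAs by mean FPKM, with 53983 ± 19400 FPKM in the controls and 52979 ± 12812 FPKM in GOF samples (SD, n = 3). Tug1, Mir22hg, Neat1 and Pvt1 followed at ranks 41, 59, 61 and 85, and Lncpint was at rank 276. Kcnq1ot1 and Mir17hg had ranks 623 and 690, and Miat, the least abundant, had rank 1833. Several neighbors in this order had overlapping ranges: the FPKM values of Tug1 and Mir22hg, of Mir22hg and Neat1, of Neat1 and Pvt1, and of Kcnq1ot1 and Mir17hg overlapped in both groups. Compared within each library, Tug1 was always above Mir22hg, while the order in the other pairs differed between libraries. FPKM values in this table are relative to lncRNA fragments and were 21.5 to 63.4 times those of the same gene in the all-gene table, by an amount that differed between libraries.

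Levels scaled for depth are given as CPM, fragments per 1000000 tested fragments of the same table, with each library total multiplied by a scaling factor (TMM). Of the 9 genes tested in the lncRNA table, 1 passed the adjusted p threshold of 0.05 (edgeR, Benjamini-Hochberg over 1389 lncRNAs), and it was also the one that passed with a fold change over 2. Over all lncRNAs tested, 11.6% passed the adjusted p threshold, 6.26% as higher and 5.33% as lower, and 9.36% passed both thresholds. In the all-gene table it was again 1 of 8, beside 21.2% and 12.3% of 15462 features. The gene was Miat in both tables, and it entered the test through its GOF values alone. At an unadjusted p under 0.05 the count was 2 in each table, Miat and Mir17hg, where 25.1% of lncRNAs and 34.9% of all features lay. The median log2 fold change of the genes tested was -0.05 in the lncRNA table, beside -0.08 for all lncRNAs, and -0.12 in the all-gene table, beside -0.02 for all features. The median size of the log2 fold change without its sign was 0.117 beside 0.369 for all lncRNAs, and 0.171 beside 0.338 for all features.

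**Figure D1:**
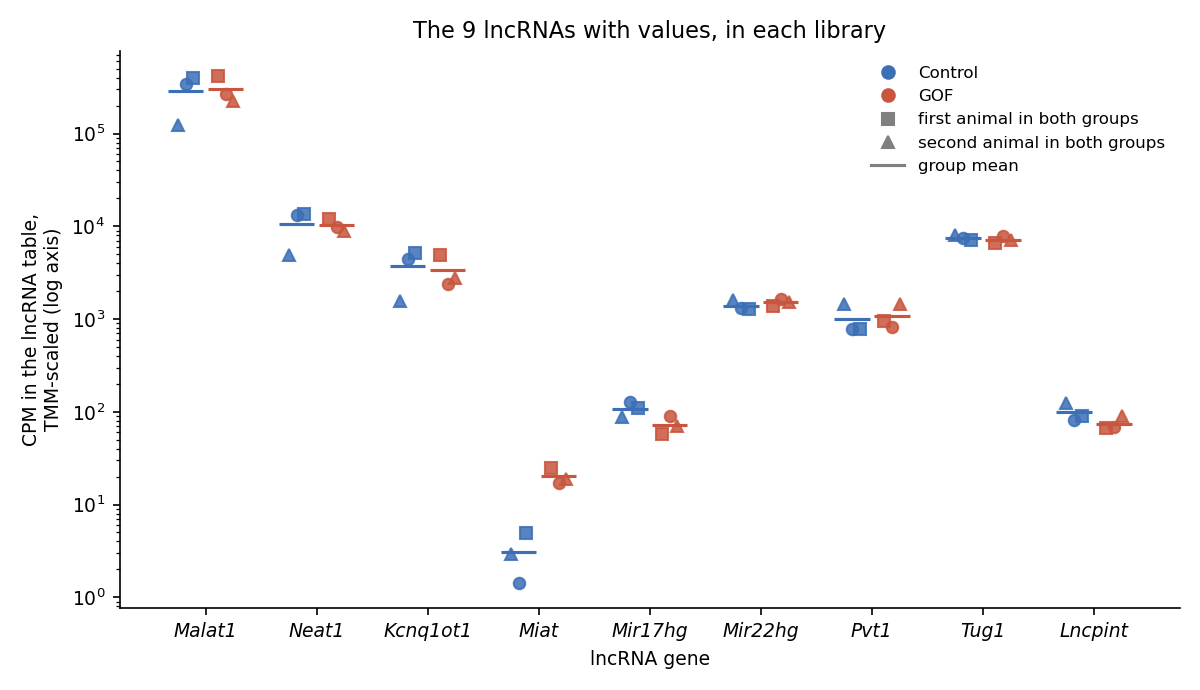
Level of the 9 measured lncRNAs in every library of the lncRNA table, as CPM after TMM scaling on a log axis, with Control in blue, GOF in red, group means as bars, and squares and triangles for the 2 animals with a culture in each group. Miat is the gene whose groups separate, with 1.44 to 4.92 CPM in the controls and up to 24.7 CPM in GOF samples, and Malat1, Neat1 and Kcnq1ot1 share a low triangle in the controls.

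**Figure D2:**
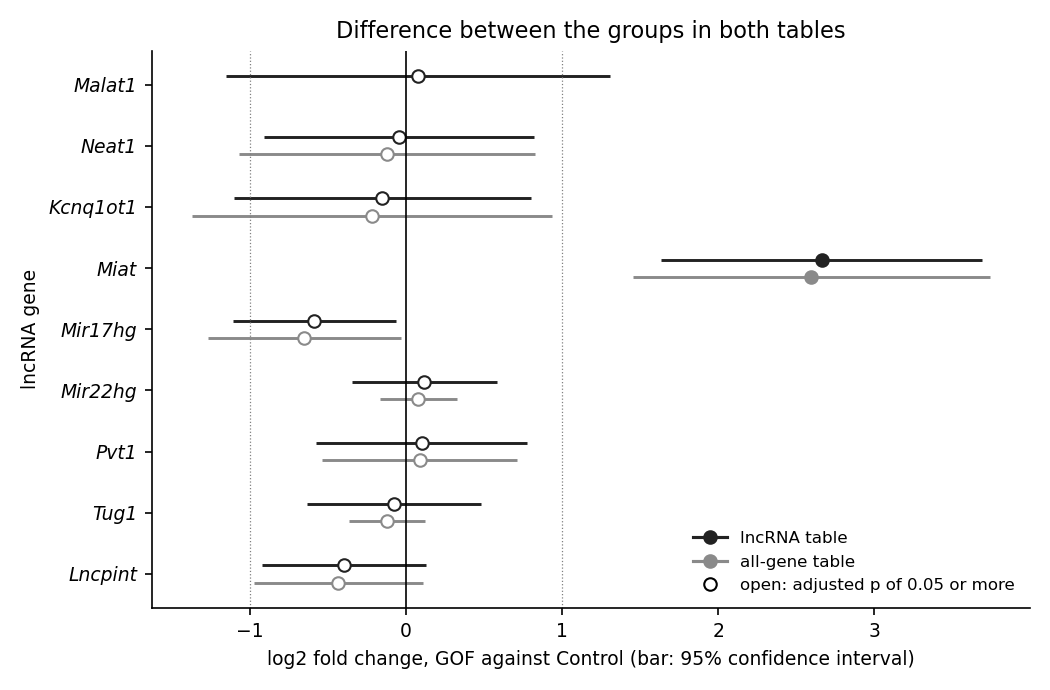
Log2 fold change of GOF against Control for each lncRNA with its 95% confidence interval, in the lncRNA table (black) and the all-gene table (gray), where filled circles passed an adjusted p of 0.05 in edgeR and dotted lines mark a fold change of 2. Only Miat is filled, at 2.66 and 2.60, and the intervals of Malat1, Neat1 and Kcnq1ot1 are wider than those of Mir22hg and Tug1.

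Miat (chromosome 5, 112213228 to 112229395, minus strand) is a nuclear lncRNA named for its association with myocardial infarction and best studied in heart, retina and neurons. In the lncRNA table it had 3, 2 and 7 fragments in Control 0, 1 and 2 and 34, 20 and 24 fragments in GOF 0, 1 and 2. Every GOF library was above every control. On the CPM scale the level was 3.09 ± 1.74 in the controls and 20.2 ± 4.02 in GOF samples (SD, n = 3). This was a log2 fold change of 2.66 with a standard error (SE) of 0.47 (adjusted p = 0.0044, edgeR). The all-gene table gave 2.60 (SE 0.49, adjusted p = 0.0098). Summed over libraries, 12 fragments in the controls against 78 in GOF samples gave a ratio of 6.21 after division by the table totals, with an exact 95% interval of 3.36 to 12.5 that covers counting error only.

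The difference was seen within both animals that gave a culture to each group, where it was 2.19 and 2.02 in log2 CPM. Miat remained called with each library left out in turn, in both tables. However, in the fit above it was tested only because its GOF values passed the filter on low counts. A higher GOF level was thereby favored in advance. When no filter was set it was also called, at 2.73 in the lncRNA table (adjusted p = 3.6e-06, edgeR). The adjusted p, the interval and these repeats use the same values and are not separate support for a rise. On FPKM the groups of Miat overlapped. The values were 3.79, 0.151 and 3.23 FPKM in the controls and 6.82, 1.97 and 5.22 FPKM in GOF samples, and an exact two-sided permutation test gave p = 0.3, where 3 against 3 samples cannot go below 0.1. The 2 scales did not order the libraries alike, since 3 fragments in Control 0 stood for 3.79 FPKM and 20 fragments in GOF 1 for 1.97 FPKM. With limma on log2(FPKM + 1) Miat lost the call, at 0.88 (adjusted p = 0.454), as it did on log2(FPKM + 0.1) (1.52, adjusted p = 0.458). Its mean of 4.67 FPKM in GOF samples was below that of every other lncRNA of the set in this table.

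Single markers of some cell types other than fibroblasts also differed between the groups in which Miat differed, while most other markers tested from the same lists did not pass. The 3 endothelial markers summed to 0.706 to 1.54 FPKM in the controls and 2.18 to 3.40 FPKM in GOF samples, and 1 of 3 tested passed, Kdr, a receptor for vascular endothelial growth factor, with a log2 fold change of 1.77 (adjusted p = 0.011, edgeR). The 4 leukocyte markers summed to 2.40 to 3.33 and 4.33 to 7.54 FPKM, and 1 of 4 passed, the growth factor receptor Csf1r at 1.52 (adjusted p = 0.00186). The 4 skeletal muscle markers summed to 23.3 to 27.4 and 138 to 172 FPKM, and 1 of 2 tested passed, the actin gene Acta1 at 2.53 (adjusted p = 0.000105). The 3 adipocyte markers summed to 7.18 to 8.91 and 1.80 to 3.17 FPKM, with the lipid carrier Fabp4 at -1.79 (adjusted p = 0.00532) as the 1 gene tested. The groups did not overlap in any of these sums, and no marker was at 0 in all libraries. Of all features, 11.1% passed as higher and 10.2% as lower. The endothelial markers Pecam1 and Cdh5 had log2 fold changes of 0.78 and 0.56 (adjusted p = 0.405 and 0.215, edgeR). The leukocyte markers Cd68, Ptprc and Adgre1 had 0.20, 0.23 and -0.28 (adjusted p = 0.758, 0.874 and 0.832). The muscle marker Des had 0.31 (adjusted p = 0.541), and the muscle sum was mostly Acta1. Their part in the difference in Miat was not tested.

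The promoter of Miat is shown because it is the single gene of the set that passed the test on fragments. The RefSeq window from 250 bases before to 50 bases after the start (GRCm38.p6, minus strand, chr5:112228899-112229198) reads as follows, with no letters in capitals because no motif searched was found.
Miat promoter: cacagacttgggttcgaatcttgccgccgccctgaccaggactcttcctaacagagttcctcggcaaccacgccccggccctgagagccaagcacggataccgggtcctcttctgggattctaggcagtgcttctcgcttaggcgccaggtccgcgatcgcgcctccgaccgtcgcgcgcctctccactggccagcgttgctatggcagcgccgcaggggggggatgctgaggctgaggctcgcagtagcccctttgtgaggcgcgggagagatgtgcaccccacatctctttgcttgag
The letter strings CTTTGAA and CTTTGAT, core forms of the motif of the TCF/LEF partners of β-catenin, and CACGTG, the E-box that MYC can bind, were searched on both strands in the 8 RefSeq windows on hand, which did not include those of Neat1 and Pvt1. The window of Mir17hg lies inside the gene, over hairpins of the cluster. They occur in 5.14%, 3.73% and 7.15% of 32851 RefSeq promoters of the same length. Of the 8 windows, 1 held one of these strings, that of Lncpint with CACGTG.

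Malat1 (chromosome 19, 5795690 to 5802672, minus strand), which associates with splicing factors in nuclear speckles, was the most abundant transcript of the set and took 12.4% to 41.3% of all lncRNA-table fragments. It had 126564, 473858 and 565907 fragments in Control 0, 1 and 2 and 572224, 312516 and 289205 in GOF 0, 1 and 2. The lowest and the next to highest libraries were both controls, and the GOF libraries lay between or just above them. GOF differed from Control by a log2 fold change of 0.08 (SE 0.56, adjusted p = 0.952, edgeR), with a 95% interval from 0.449-fold to 2.48-fold. Set against the fragments of the all-gene table instead, Malat1 had 3518, 11740 and 14092 CPM in the controls and 13752, 8028 and 6752 in GOF samples, and Control 0 was again the lowest library.

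Neat1 (chromosome 19, 5824708 to 5845478, minus strand), the RNA scaffold of paraspeckles, lies 22035 bases from Malat1. Its fragments were 4999, 18269 and 19509 in the controls and 16593, 11582 and 11241 in GOF samples. Control 0 was again the lowest library and the other two controls the highest, so that the GOF samples fell inside the range of the controls. In edgeR the log2 fold change was -0.05 (SE 0.39, adjusted p = 0.959), with an interval from 0.531-fold to 1.77-fold.

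Kcnq1ot1 (chromosome 7, 143203458 to 143296549, minus strand) is transcribed antisense within Kcnq1 from the paternal chromosome and silences neighboring genes there. It had 1600, 6104 and 7394 fragments in the controls and 6703, 2769 and 3566 in GOF samples. Here too Control 0 was lowest and Control 2 highest. Its log2 fold change was -0.15 (SE 0.43, adjusted p = 0.865), with an interval from 0.465-fold to 1.74-fold. The strand setting of the counting was not given in the sources used here, so that reads from Kcnq1ot1 and Kcnq1 may not be separated, although Kcnq1 had at most 4 fragments in any library of the all-gene table.

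These 3 nuclear transcripts moved together from library to library. Across the 6 libraries, which come from 4 animals and 2 groups and share a scaling, Pearson's r of log2 CPM was 0.975 for Malat1 with Neat1, 0.952 for Malat1 with Kcnq1ot1 and 0.933 for Neat1 with Kcnq1ot1. Their highest library exceeded their lowest by 3.38-fold, 2.82-fold and 3.34-fold after scaling. Their SD within groups was larger than that of 91.8%, 86.2% and 93.0% of the 1389 lncRNAs tested. In the all-gene table, where Malat1 takes no part in the total, the ranges of Neat1 and Kcnq1ot1 were 3.29-fold and 3.89-fold.

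Within the animal that gave Control 0 and GOF 2, the log2 difference of GOF minus Control was 0.88 for Malat1, 0.86 for Neat1 and 0.85 for Kcnq1ot1. Within the animal that gave Control 2 and GOF 0 it was 0.07, -0.18 and -0.09. The 2 animals thus gave different differences that were alike among the 3 genes. Control 0 had the smallest total of both tables. The share of fragments from mitochondrial genes, of which 3 of 37 had a failed estimate, was 0.512%, 0.855% and 1.10% in the controls and 0.590%, 0.427% and 0.229% in GOF samples, so that its lowest library was GOF 2 and not Control 0. The part of depth or RNA quality in this library pattern was not tested. When the fit included a term for the animal as a block, with 1 degree of freedom left for the spread, the log2 fold changes became 0.47 for Malat1 (adjusted p = 0.575), 0.34 for Neat1 (adjusted p = 0.617) and 0.38 for Kcnq1ot1 (adjusted p = 0.479).

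**Figure D3:**
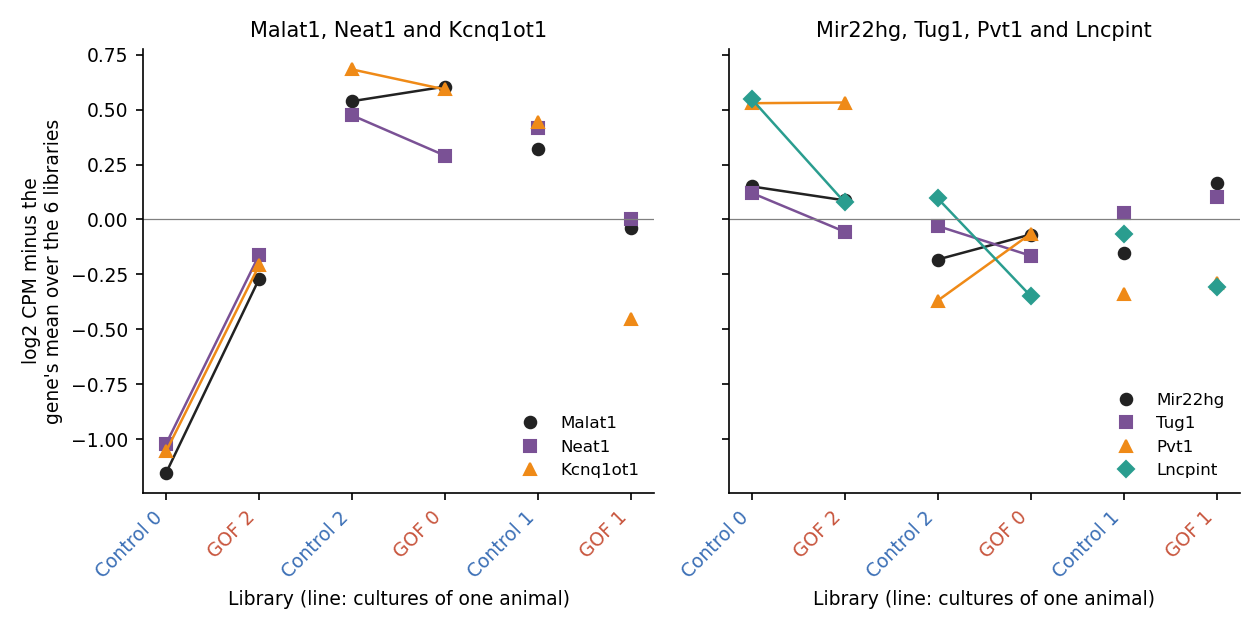
Log2 CPM of each lncRNA in the lncRNA table minus its mean over the 6 libraries, with the libraries ordered so that cultures of one animal stand next to each other, joined by a line. On the left Malat1, Neat1 and Kcnq1ot1 lie together, about 1 log2 unit below their means in Control 0, and on the right Mir22hg and Tug1 stay close to 0 while Pvt1 and Lncpint are highest in Control 0 or GOF 2.

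The mRNAs for proteins of the bodies that Neat1 and Malat1 belong to did not pass either, and the proteins themselves were not measured. Of 9 paraspeckle proteins 0 passed the adjusted p threshold, and 0 passed at an unadjusted p under 0.05 in edgeR, beside 21.2% and 34.9% of all features. Their median log2 fold change was -0.11, and the core proteins Nono and Sfpq had -0.20 and -0.15 (adjusted p = 0.503 and 0.568). Of 12 nuclear speckle proteins 0 passed, and 2 had an unadjusted p under 0.05, with a median of -0.09 and with 0.01 for Son and 0.30 for Srrm2, which organize the speckle (adjusted p = 0.976 and 0.402). DESeq2 and limma on log2(FPKM + 1) also called 0 genes of either list.

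Of the 9 genes listed for the imprinted domain of Kcnq1ot1, 6 were tested, 2 passed as lower and 0 as higher, beside 10.2% and 11.1% of all features, with a median log2 fold change of -0.36 beside -0.02. Cdkn1c, which encodes an inhibitor of cyclin-dependent kinases, had 919, 1651 and 1685 fragments in the controls and 561, 675 and 518 in GOF samples. Every GOF library was below every control, and Cdkn1c fell by 1.30 on the log2 scale (SE 0.21, adjusted p = 0.00556). Slc22a18, a membrane transporter, fell by 1.14 on the log2 scale (SE 0.27, adjusted p = 0.023). The other four tested genes, Cd81, Tssc4, Tspan32 and Nap1l4, had log2 fold changes of 0.42, 0.11, -0.75 and 0.03 and did not pass. Kcnq1ot1 itself did not pass, and its interval in the lncRNA table runs from below to above no change.

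Mir17hg, the primary transcript of the miR-17-92 cluster, which is known for driving cell proliferation, had the only other unadjusted p under 0.05. It had 91, 176 and 155 fragments in the controls and 79, 105 and 89 in GOF samples. On deposited FPKM the groups did not overlap. The values were 34.1, 43.0 and 37.7 FPKM in the controls and 17.1, 31.9 and 23.6 FPKM in GOF samples in the lncRNA table, where 26.0% of the lncRNAs tested had groups that did not overlap. In the all-gene table its groups did not overlap either, beside 39.5% of the features tested. In both tables the exact two-sided permutation p was 0.1, the smallest this design allows. The log2 fold change of Mir17hg was -0.59 (SE 0.24, 95% interval 0.463-fold to 0.957-fold, unadjusted p = 0.0315, adjusted p = 0.150, edgeR) in the lncRNA table and -0.65 (SE 0.27, adjusted p = 0.124) in the all-gene table.

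On the CPM scale the groups of Mir17hg overlapped by a small margin, because GOF 1 with 89.4 lay above Control 0 with 88.5. The value was lower in the GOF culture of both animals that are in each group, by a log2 difference of -0.34 and -0.90. Without Control 0 the gene passed in the all-gene table (log2 fold change -0.84, adjusted p = 0.0475). It did not pass with any other library left out, and in the lncRNA table it passed under none of 18 alternatives.

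Mir22hg, the host of miR-22, varied little. Its fragments were 1653, 1808 and 1817 in the controls and 1899, 1906 and 1961 in GOF samples, and after scaling the groups overlapped with a range of 1.27-fold over the 6 libraries. Mir22hg had a log2 fold change in GOF samples of 0.12 (SE 0.21, adjusted p = 0.785) in the lncRNA table and 0.08 (SE 0.11, adjusted p = 0.646, interval 0.889-fold to 1.25-fold) in the all-gene table. Its SD within groups was larger than that of only 1.38% of all features tested in the all-gene table. Tlcd2, a protein-coding gene that overlaps Mir22hg on the same strand, had 2527, 2321 and 2200 fragments in the controls and 1111, 1376 and 1168 in GOF samples. It fell by 1.01 on the log2 scale (SE 0.17, adjusted p = 0.0062), and reads in the stretch both genes share could have been split between them.

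Genes linked to the microRNA cluster were read from the all-gene table. Of 5 known regulators of its transcription 0 passed and 0 had an unadjusted p under 0.05 (edgeR), with -0.03 for Myc (adjusted p = 0.946) and 0.05 for E2f1 (adjusted p = 0.801), and DESeq2 and limma on log2(FPKM + 1) called 0 of them. Of 6 known targets of its microRNAs 5 were tested, since Thbs1 was marked as having too many fragments, and 3 passed as higher, beside 11.1% of all features. The median log2 fold change of the 5 was 0.71, beside -0.02 for all features. Cdkn1a, an inhibitor of cyclin-dependent kinases, had 78.5 ± 13.8 FPKM in the controls and 161 ± 17.9 in GOF samples (SD, n = 3) and rose by 1.06 on the log2 scale (adjusted p = 0.00537).

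The matricellular factor gene Ctgf (now Ccn2) rose by 0.85 (adjusted p = 0.0455) and the TGF-β receptor gene Tgfbr2 by 0.71 (adjusted p = 0.0403) on the same scale. Bcl2l11, a further target that acts against cell survival, had -0.70 (adjusted p = 0.201). Of 7 genes for microRNA processing 1 passed as higher, beside 11.1% of all features. It was Tarbp2, a partner of Dicer, at 0.69 (adjusted p = 0.0312), while Drosha and Dicer1, the nucleases, had 0.11 and 0.36 (adjusted p = 0.636 and 0.149). Of 12 other microRNA-host lncRNAs 8 were in the lncRNA table and 5 were tested. Among them 1 passed as lower, beside 5.33% of all lncRNAs tested. It was Ftx, a lncRNA of the X-inactivation center, with a log2 fold change of -0.88 (adjusted p = 0.0111). H19, which is imprinted and hosts miR-675, had -0.99 with an SE of 0.57 (adjusted p = 0.319).

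Pvt1 (chromosome 15, 62037986 to 62378096, plus strand), the neighbor of the proto-oncogene Myc and linked to its protein level in tumors, had 1481, 1094 and 1099 fragments in the controls and 1311, 958 and 1840 in GOF samples. One library of each group stood above the rest after scaling, Control 0 with 1440 and GOF 2 with 1443 CPM, against 772 to 953 in the other four libraries. Both come from the same animal. Pvt1 did not pass, with a log2 fold change of 0.10 (SE 0.31, adjusted p = 0.874), with an interval from 0.670-fold to 1.71-fold. Myc had 260 to 319 fragments in the controls and 215 to 400 in GOF samples.

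Tug1 (chromosome 11, 3639785 to 3649673, minus strand), a broadly expressed lncRNA first described in retina and linked to repression through Polycomb, varied little between libraries, as did Mir22hg. It had 8199, 10373 and 10229 fragments in the controls and 8994, 9235 and 8994 in GOF samples. After scaling, its libraries differed by at most 1.22-fold and the groups overlapped. Tug1 had a log2 fold change in GOF samples of -0.08 (SE 0.25, adjusted p = 0.884) in the lncRNA table and -0.12 (SE 0.11, adjusted p = 0.454, interval 0.776-fold to 1.09-fold) in the all-gene table. Morc2a, which overlaps Tug1 on the opposite strand, differed by -0.29 on the log2 scale (adjusted p = 0.236).

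Gm27517, a small RNA entry inside Tug1 on the same strand, had 18.8, 28.1 and 11.7 estimated fragments in the controls and 0 in each GOF library of the all-gene table. It entered the test through its control values alone, so a lower GOF level was favored in advance. It was 1 of 20 such entries inside the genes described here, of which 2 had enough fragments to be tested. Its estimated fragments are not whole numbers, while Tug1 had at least 8179 fragments in every library of that table.

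Lncpint (chromosome 6, 31082565 to 31220488, minus strand), a lncRNA induced by p53 that restrains proliferation, had 128, 112 and 129 fragments in the controls and 91, 80 and 114 in GOF samples. The highest GOF library lay just above the lowest control in fragments, and the groups also overlapped after scaling. Lncpint had a log2 fold change in GOF samples of -0.40 (SE 0.24, adjusted p = 0.338, interval 0.527-fold to 1.09-fold), and in both animals with a culture in each group the GOF culture was lower, by -0.47 and -0.44. In the all-gene table it was -0.43 (SE 0.23, adjusted p = 0.230).

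Of 8 p53 targets 3 passed as higher and 0 as lower, beside 11.1% and 10.2% of all features, with a median log2 fold change of 0.43. Mdm2, the ubiquitin ligase that limits p53, rose by 1.39 (adjusted p = 0.00487), Ccng1, a p53-induced cyclin, by 1.08 (adjusted p = 0.0258) and Cdkn1a, also counted among the microRNA targets, by 1.06. Of 6 proliferation markers 4 passed as lower and 0 as higher, beside 10.2% and 11.1% of all features, with a median of -1.26. Mki67, a protein of dividing cells, fell by 1.65 (adjusted p = 0.000298), Top2a, a topoisomerase of replicating DNA, by 1.59 (adjusted p = 0.00223) and the mitotic cyclin Ccnb1 by 1.53 (adjusted p = 0.00951). Lncpint, Pvt1 and Mir17hg, which have been linked to growth control, did not pass in either table in the comparison of all 6 libraries.

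**Figure D4:**
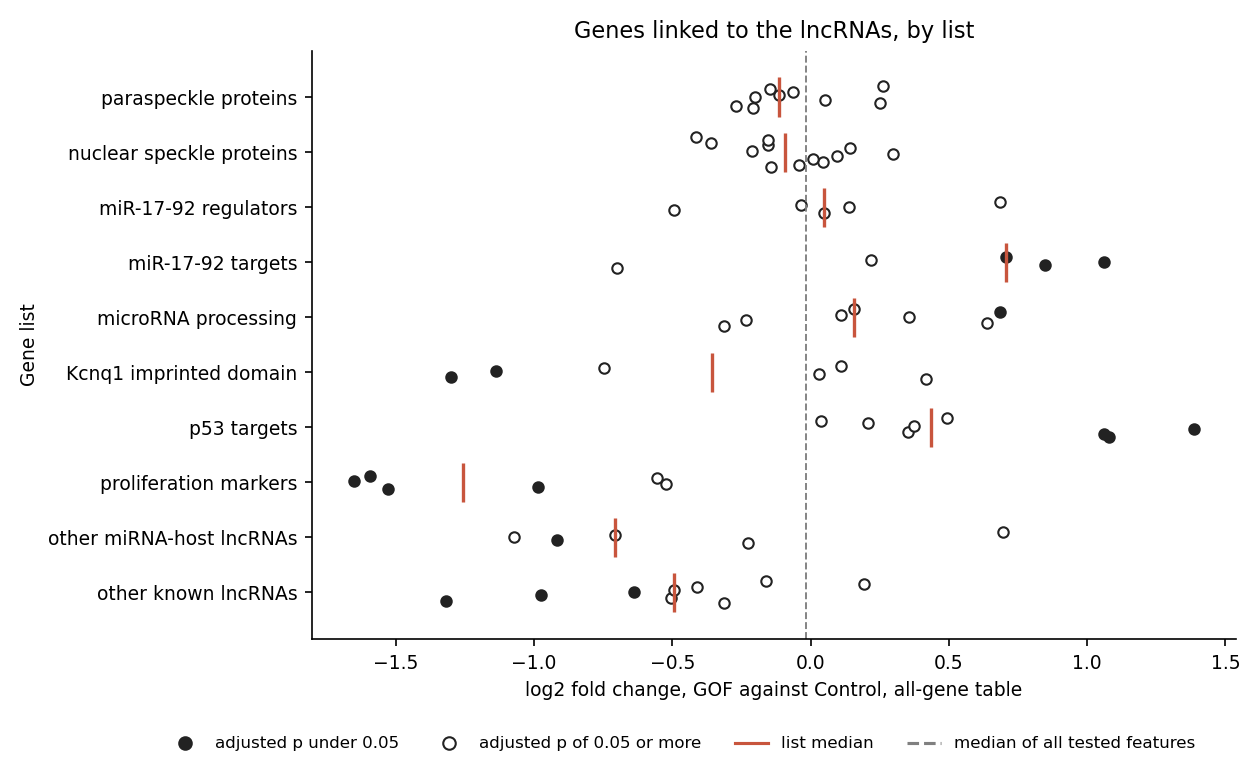
Log2 fold change of GOF against Control in the all-gene table for the genes of 10 lists linked to the lncRNAs, where filled circles passed an adjusted p of 0.05 in edgeR, red bars are list medians and the dashed line is the median of all features. The paraspeckle and speckle lists hold no filled circle, and the proliferation list has the lowest median, -1.26.

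Among other known lncRNAs, 15 were listed, 12 were in the lncRNA table and 9 were tested. Of these 2 passed as lower, beside 5.33% of all lncRNAs tested. They were Dnm3os, the host of a microRNA cluster in mesenchymal cells, with -1.25 (adjusted p = 0.0314) and Firre, which organizes nuclear architecture from the X chromosome, with -0.91 (adjusted p = 0.0227). Gas5, a snoRNA host linked to growth arrest, had -0.60 (adjusted p = 0.259) in the lncRNA table and -0.64 (adjusted p = 0.0464) in the all-gene table, where 3 of 9 passed as lower, beside 10.2% of all features. The list medians were -0.45 in the lncRNA table and -0.50 in the all-gene table, beside -0.08 and -0.02 for all features tested.

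Dancr lies on chromosome 5, 74093060 to 74095406, plus strand, next to Usp46 and Rasl11b. These flanking genes had log2 fold changes of -0.26 and -0.31 (adjusted p = 0.178 and 0.482) in the all-gene table. Snora26, a snoRNA inside Dancr on the same strand, had 0.27 (adjusted p = 0.630).

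The 10 lncRNA genes had 18 different nearest protein-coding neighbors, of which 13 were tested, 2 passed as higher and 1 as lower, beside 11.1% and 10.2% of all features. Frmd8, next to Neat1 and the nearest coding gene on that side of Malat1 too, had 1647, 2097 and 1848 fragments in the controls and 3322, 2354 and 3925 in GOF samples. It rose by 0.73 (SE 0.17, adjusted p = 0.0239). Osbp2, the nearest coding gene on one side of Tug1, rose by 1.08 (adjusted p = 0.0426) from 17 to 37 fragments in the controls to 57 to 63 in GOF samples. The gene that fell was Cdkn1c, which is also the nearest coding gene outside Kcnq1 on one side of Kcnq1ot1. Cryba4, the gene on one side of Miat, had 2 to 6 fragments in the controls and 2 to 5 in GOF samples, and Gm26897 on the other side had 0 in every library.

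For each gene the lncRNA with the most similar profile was taken from those with a mean of at least 50 fragments, by Pearson's r of log2 CPM over the 6 libraries, which share 4 animals and 2 groups. Among 690 candidates, that of Neat1 was Malat1 (r = 0.975). Malat1 was closest to the unnamed ENSMUSG00000092267.1 (r = 0.996) and Kcnq1ot1 to Gm4117 (r = 0.997). Mir17hg was closest to A630052C17Rik (r = 0.969), Mir22hg to Gm26530 (r = 0.987), Pvt1 to Inafm2 (r = 0.971), Tug1 to 2900041M22Rik (r = 0.979) and Lncpint to ENSMUSG00000091271.1 (r = 0.985). Miat, compared with 691 lncRNAs, was closest to Gm10561 (r = 0.972). With so few libraries and so many candidates such values are a description of these libraries.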

How the data were processed

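Libraries were made from total RNA with a stranded Illumina kit, after which the authors used TopHat on mm10 for mapping and Cuffdiff for expression estimates, whose versions and strand setting are not given in the sources used here. Both deposited tables give, per gene and library, estimated counts of fragments and FPKM (the deposited FPKM values are scaled by the authors within each table). The 6 other value columns (scaled fragments and effective lengths) were not used, and 32 features of the all-gene table with a failed estimate were left out, 23 of them marked as having too many fragments. Fragments were rounded, filtered with filterByExpr, scaled by TMM and tested with edgeR 4.0.16 (quasi-likelihood, Benjamini-Hochberg over each table, R 4.3.3). Thresholds were an adjusted p of 0.05 and a fold change of 2. FPKM was compared by an exact permutation test. limma 3.58.1 and DESeq2 1.42.0 were alternatives. The scripts were tested on simulated data. Log2 CPM used a prior count of 2.

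The genes, lists and tests were chosen with earlier results of these data known. The text names all 10 lncRNAs, their nearest protein-coding and overlapping genes, up to 3 passing genes of each list by p or else its defining genes, and the lncRNA of most similar profile. Cd81, Tssc4, Tspan32, Nap1l4, H19, Gas5 in the lncRNA table and the defining genes of lists with a passing gene were named after their values were seen. Positions come from the GENCODE annotation of GRCm38, later than the one used for counting, and 10 of 10 genes were matched by symbol. Replicates are separate cultures, p-values measure the spread between them, and 2 of 4 animals are in both groups. In the lncRNA table, deviations from the group means had r = -0.40 for the same-numbered Control 0 and GOF 0. They had r = 0.29 and 0.34 for cultures of one animal, a pairing read from the title numbers. Control 1 and GOF 0, of different animals, had r = 0.23. These values depend on each other, since each deviation is taken from a group mean, and they do not settle the pairing. Counts were lowest for Miat, with 2 to 34 fragments. Some genes that the naming rule covers are not reported here.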

Additional observations from a re-analysis of the deposited data

How the results depend on the processing

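Under 18 alternatives in the lncRNA table and 16 in the all-gene table, Lncpint kept its direction and passed in none. Mir17hg, with 15 in the all-gene table because it was not tested at a minimum FPKM of 1, also kept its direction, and it passed without Control 0 (-0.84). Miat stayed called except with limma on log2(FPKM + 1) (0.88 and 0.085 in the lncRNA and all-gene tables) and on log2(FPKM + 0.1) (1.52 and 0.46), which left 0 of the genes passing in either table, and at a minimum FPKM of 1 in 3 libraries it was not tested in the all-gene table, which also left 0. With each library left out, 1 gene passed in the lncRNA table and 1 to 2 in the all-gene table, and 1 passed both thresholds. Genes past both thresholds numbered 130 of all lncRNAs, 234 when no filter was set and 89 to 195 with a library left out, and 1906 of all features, 877 with limma on log2(FPKM + 1) and 1311 to 1961 with a library left out.

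Values near 0 changed sign without passing. Malat1 was -0.013 with library totals and -0.057 with those of the all-gene table. Neat1 was 0.017 with DESeq2, 0.041 when no filter was set, 0.035 at a minimum FPKM of 1 and 0.0202 without Malat1 in the totals. Tug1 was 0.0062 at a minimum FPKM of 1, and Mir22hg was -0.034 in the lncRNA table with limma at both pseudocounts and -0.029 and -0.0297 in the all-gene table at pseudocounts of 1 and 0.1. The replicate block by animal gave 0.34 and 0.35 for Neat1 in the lncRNA and all-gene tables and 0.38 and 0.38 for Kcnq1ot1. The replicate block by animal as a random effect gave 0.17 and 0.16 for Neat1 and 0.0800 and 0.085 for Kcnq1ot1, and the replicate block by number gave 0.068 and 0.011 for Neat1. No block changed a call on these genes.

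With a library left out, the log2 fold changes in the lncRNA table ranged from -0.22 to 0.36 for Malat1, -0.32 to 0.16 for Neat1, -0.47 to 0.14 for Kcnq1ot1, -0.083 to 0.52 for Pvt1 and -0.13 to 0.034 for Tug1, and in the all-gene table from -0.50 to 0.15 for Neat1, -0.66 to 0.14 for Kcnq1ot1 and -0.17 to 0.34 for Pvt1. The cause of these changes was not tested.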
